A study of Mus musculus with 28 samples.

Results

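Gene expression in the distal colon of late mice was set against that of early mice in a mouse model of colitis-associated colon cancer. The comparison took the 6 late distal and the 3 early distal arrays by their labels, 9 of the 28 arrays of the study. All 9 came from female C57BL/6J mice that were given the colon carcinogen azoxymethane (AOM), 10 mg/kg by intraperitoneal injection at about 18 to 20 g of body weight, so AOM is shared by both groups. From 96 hours after AOM the mice drank 2.5% dextran sulfate sodium (DSS), which damages the colon epithelium, for 5 days and then water for 14 days. Late mice went through 4 such cycles and were killed on day 120. Early mice went through 2 cycles and were killed on day 42. Per the labels, the late distal colon held dysplasia and intramucosal adenocarcinoma, the early distal colon held areas of dysplasia, and the proximal colon was unaffected. Age, time after AOM and the number of DSS cycles all differ between the groups. If cycles followed each other directly, the time since the last DSS differs too. These differences cannot be told apart. The labels call the arrays biological replicates of tissue from at least 3 animals a condition and do not say how much of a piece was lesion. They name 2 RNA amplification kits without saying which array had which.

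In the colon, Wnt ligands keep β-catenin in the nuclei of crypt base cells, where it acts with TCF and LEF proteins to keep stem cells dividing. Cells that climb the crypt lose this signal and mature into absorptive colonocytes, mucus-making goblet cells and hormone-making enteroendocrine cells. Mutations that lock β-catenin in its active form are known from AOM tumours of rodents, and genes that restrain Wnt signalling are themselves turned on by β-catenin as feedback. DSS injury brings in neutrophils and monocytes and is followed by repair of the epithelium.

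The distal colon was recognisable in all 9 arrays. Hoxd13 and Hoxb13, transcription factors of the posterior gut, lay between 11.05 and 12.66 log2 units, and Cdh17, Vil1, Krt20 and Muc2 of intestinal epithelium between 11.85 and 13.47. Hoxa13 lay between 5.29 and 6.19. Array medians of the study ran from 6.61 to 6.80. Early array 1 stood apart: over all genes it correlated with the other early arrays at 0.950 to 0.954 (Pearson), while these correlated with each other at 0.980 and the late arrays among themselves at 0.965 to 0.986. It was low in inflammatory genes, with a neutrophil list mean of 7.56 log2 units, against 9.93 and 9.95 in the other early arrays. The early values are unlike the others in their digits: where a level was at least 12, the fifth decimal was a 5 in 49.4% to 50.8% of values of the 6 early arrays and in 0.0% on the other 22, as means of 2 values with 4 decimals would give. The labels do not say whether early arrays were averaged before deposit. An early array is counted as 1 sample here, and if each were such a mean, the spread between early arrays, the standard errors and the p-values would not be those of single arrays. A pair of untreated arrays went against their labels: 1 labelled distal had a Hoxd13 level of 3.44, where the other 5 had 11.68 to 12.20, and 1 labelled proximal had 11.37, where the other 5 had at most 3.79. Whether they were exchanged was not tested. Untreated distal values below include that array as labelled. Leaving it out moved the untreated means printed below by at most 0.18 log2 units, except for Mmp7 and Pnliprp2 (to 3.80 and 7.92). Untreated arrays enter the comparison only through the pooled spread. With the 16 treated arrays alone 3716 genes were called, and 3945 without that pair of arrays, against 3398 with all arrays.

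Late and early distal colon differed at 3398 of 14123 genes tested, or 24.1% of them, by limma at an adjusted p under 0.05. Of these genes 2171 were higher in late mice (15.4% of all genes) and 1227 were lower (8.69%). The rises were the larger changes. Called and at least 2-fold higher were 563 genes (3.99%), and 198 genes (1.4%) were called and at least 2-fold lower. At least 4-fold higher were 173 genes (1.22%), and the 3 genes (0.0212%) that were at least 4-fold lower were Cd163, Aqp8 and Camp. Of the called genes 72 (0.51%) rose at least 8-fold and none fell that far. All 6 late arrays lay beyond all 3 early arrays in 3271 genes (23.2%), of which 2488 were also called. The median difference of all genes was 0.03 log2 units. Without early array 1 the calls numbered 1673, of which 1110 were higher (7.86% of all genes) and 563 lower (3.99%), and 1483 were among the 3398. With each of the other arrays left out they lay between 2470 and 3755.

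**Figure D1:**
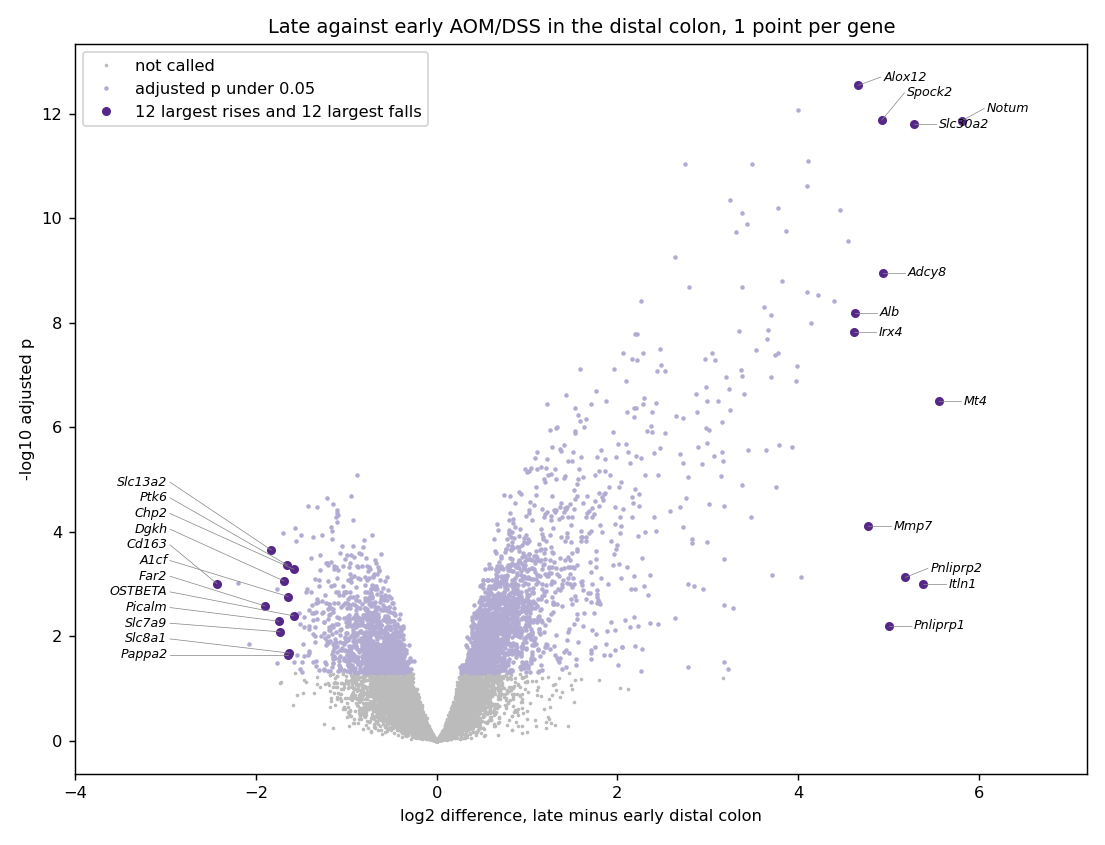
Difference between late and early distal colon (log2 units, late minus early) against the negative log10 of the adjusted p, with 1 point per gene for 14123 genes; dark points are named genes, 12 with the largest rises and 12 with the largest falls of those whose late and early arrays do not overlap. Rises reach 5.81 for Notum, and the largest of these falls is -2.43 for Cd163.

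Genes that Wnt signalling turns on rose together. Of the 28 measured members of the list of Wnt feedback inhibitors and targets, 22 rose, none fell and 6 did not pass the test, with a median difference of 1.57 log2 units, against 0.03 over all genes. The share that rose was 78.6%, against 15.4% of all genes. Without early array 1, 19 members rose. The list mean was 9.82 to 10.48 log2 units in the late arrays, against 7.82 to 8.32 in the early arrays, and 7.87 to 8.13 in untreated distal colon. The list was chosen with earlier results of these data known, so its count is a description.

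The promoters of 3 of the risen Wnt genes are shown because they hold the sequence to which TCF and LEF proteins bind with β-catenin, CTTTGAT, which was searched on both strands. Windows of 300 bases, from 250 before to 50 after the start of the gene, came from RefSeq (GRCm38.p6), which held a window for 12 of the 22 risen genes. The motif was in those of Sp5, Mmp7 and Tnfrsf19, or 3 of the 12 genes, against 4.29% of the 27025 genes with a window. Counted by window, of which a gene may have several that overlap, it was in 20.0% of 20 windows, against 3.73% of 32851. The related letters CTTTGTT were in 1 of the 12 genes, Sp5, which is 5.0% of the 20 windows, against 5.85% of all. Capitals mark CTTTGAT or CTTTGTT, written as ATCAAAG or AACAAAG where the match is on the opposite strand. A match of these letters is a description of the window and not a measured binding site.
Sp5, chr2:70474673-70474972, + strand, CTTTGAT from position -104 and CTTTGTT, on the opposite strand, from position -222 relative to the start: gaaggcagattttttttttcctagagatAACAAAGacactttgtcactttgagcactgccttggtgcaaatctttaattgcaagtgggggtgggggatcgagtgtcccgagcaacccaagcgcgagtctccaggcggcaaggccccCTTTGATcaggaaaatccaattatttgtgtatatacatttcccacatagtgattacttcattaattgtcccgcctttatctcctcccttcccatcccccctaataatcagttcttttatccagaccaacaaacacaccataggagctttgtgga
Mmp7, chr9:7691840-7692139, + strand, CTTTGAT on the opposite strand from position 5: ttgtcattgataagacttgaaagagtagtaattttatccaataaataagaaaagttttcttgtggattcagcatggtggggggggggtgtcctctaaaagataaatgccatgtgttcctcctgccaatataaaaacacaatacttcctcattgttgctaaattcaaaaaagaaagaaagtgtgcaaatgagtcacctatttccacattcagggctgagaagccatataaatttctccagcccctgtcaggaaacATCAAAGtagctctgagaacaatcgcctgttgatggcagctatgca
Tnfrsf19, chr14:61037938-61038237, - strand, CTTTGAT on the opposite strand from position -202: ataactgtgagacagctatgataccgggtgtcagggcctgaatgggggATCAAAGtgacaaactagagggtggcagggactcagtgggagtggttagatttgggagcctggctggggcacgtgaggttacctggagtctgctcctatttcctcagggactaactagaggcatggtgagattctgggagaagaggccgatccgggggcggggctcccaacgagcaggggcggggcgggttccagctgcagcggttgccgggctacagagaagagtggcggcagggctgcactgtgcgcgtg

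Notum, a secreted enzyme that inactivates Wnt ligands, had the largest rise in the comparison. Its late arrays ran from 9.93 to 11.41 log2 units with a median of 11.02, and its early arrays were at 4.76, 5.51 and 4.85. The lowest late array was far above the highest early one. The difference was 5.81 ± 0.32 log2 units (SE), or 56.0-fold (adjusted p = 1.38e-12). Early levels were close to the untreated mean of 4.72. Other inhibitors and related genes rose with it. Axin2, a scaffold of the complex that destroys β-catenin, was at 12.07 to 12.70 (median 12.23) in late arrays, against 10.21, 10.11 and 9.89 in early arrays, a difference of 2.26 ± 0.19 (adjusted p = 3.78e-09). Nkd1, which binds Dishevelled, was at 9.38 to 10.90 (median 10.24) in late arrays, against 6.60, 6.86 and 6.63 in early arrays, a difference of 3.48 ± 0.22. Rnf43 and Znrf3, ubiquitin ligases that remove Wnt receptors from the cell surface, rose by 2.29 ± 0.25 and 1.26 ± 0.22. Dkk2 and Dkk3 of the Dickkopf family of secreted proteins rose by 4.09 ± 0.34 and 1.26 ± 0.20. Apcdd1, a membrane inhibitor of Wnt signalling, rose by 3.98 ± 0.40. In every one of these 8 genes the late arrays lay wholly above the early arrays, and each call held with any 1 array left out.

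The transcription factors of the pathway rose as well. Sp5, a direct target of β-catenin that dampens other targets, was at 8.50 to 10.31 (median 9.32) in late arrays, against 4.11, 5.63 and 5.03 in early arrays, a difference of 4.39 ± 0.37 (adjusted p = 3.79e-09). Lef1 and Tcf7, which carry β-catenin on DNA, rose by 2.36 ± 0.46 and 1.78 ± 0.39, and for both early array 1 was the lowest and early array 2 the highest of the early group. Prox1, a transcription factor known from early human colon adenomas, stood at 11.73 to 12.33 (median 11.94) in late arrays, against 8.24, 8.97 and 8.64 in early arrays. Myc and Ccnd1, drivers of cell growth and division, rose by 1.21 ± 0.25 and 0.57 ± 0.13. Ccnd1 had 12.21 to 12.35 in late arrays and 11.31, 11.73 and 12.10 in early arrays, so early array 3 was only just below the late group, and without early array 1 its difference was 0.37 (adjusted p = 0.060).

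Among cell surface and secreted targets, Tnfrsf19, a receptor of the TNF family found on crypt base cells, was at 9.40 to 10.66 (median 9.97) in late arrays, against 5.65, 6.22 and 5.73 in early arrays. Early arrays were below the untreated mean of 7.21 here. Mmp7, a matrix-degrading enzyme that normal mouse colon epithelium hardly makes, was at 12.60 to 13.10 (median 12.91) in late arrays, against 5.10, 9.63 and 9.56 in early arrays. The late arrays were close together and the early ones were not: 2 of the 3 early arrays were well above the untreated mean of 4.25 and early array 1 was closer to it. Wnt5a, a ligand of noncanonical Wnt signalling, rose by 0.65 ± 0.21 but by 0.53 without early array 1 (adjusted p = 0.15). Bmp4 rose by 0.80 ± 0.30 (adjusted p = 0.049). This call ended without any 1 of the 3 early arrays or of late arrays 1, 3 and 6 (adjusted p = 0.051 to 0.18). The 6 members that did not pass included Cd44, a surface glycoprotein, with a difference of 0.35 (95% interval -0.24 to 0.95), and the crypt sorting receptors Ephb2, with 0.24 (-0.04 to 0.52), and Ephb3, with 0.59 (0.10 to 1.07; adjusted p = 0.072). Nkd2, Porcn and Nfatc3 were the others.

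**Figure D2:**
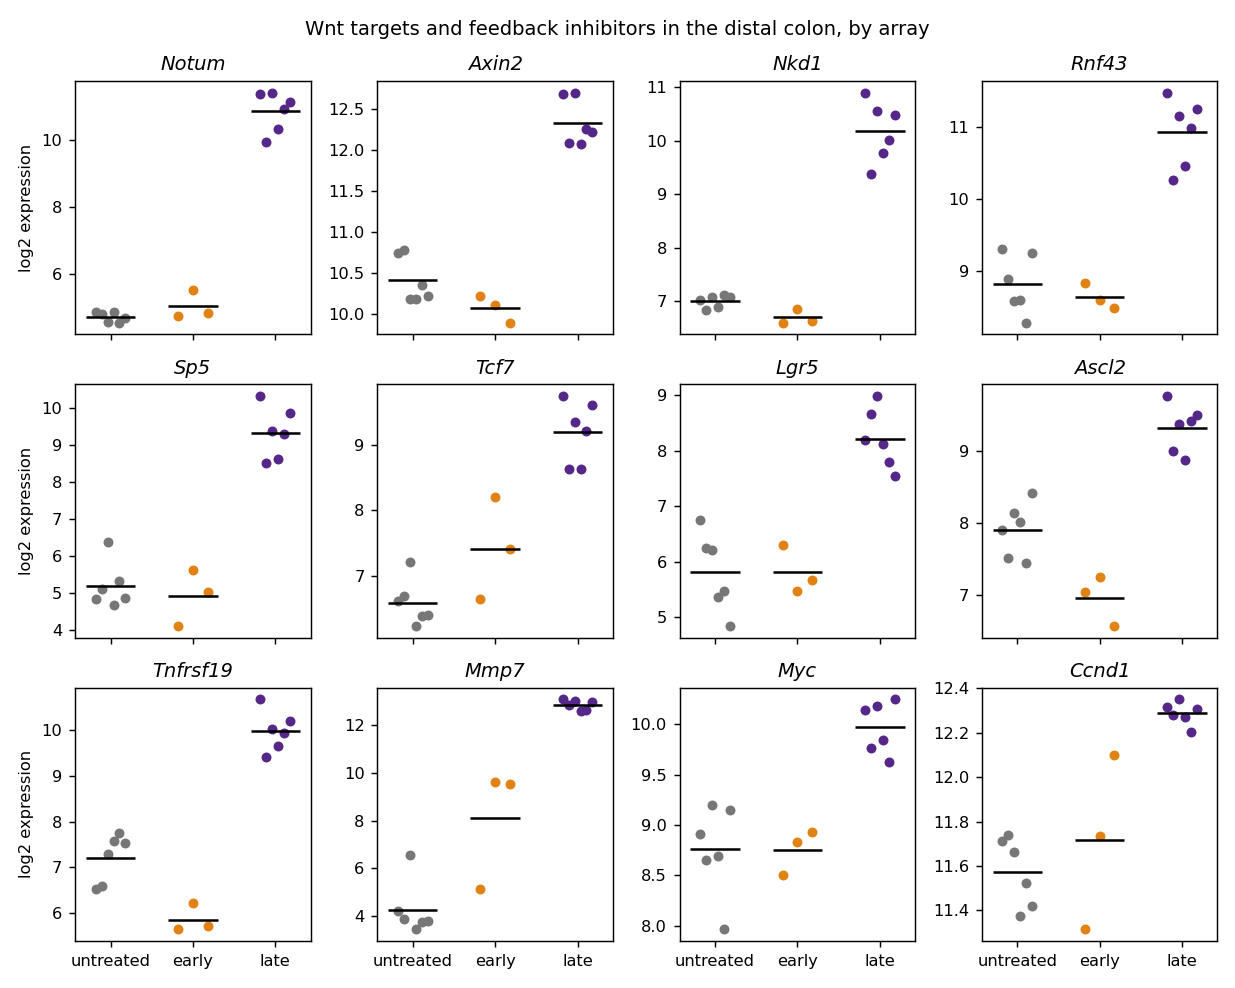
Level (log2 expression) of 12 genes of the Wnt and crypt stem cell lists in each distal array of untreated, early and late mice; points are arrays and bars are group means. All 6 late arrays lie above all 3 early arrays in each of the 12 genes, and the early arrays lie close to the untreated ones for Notum, Axin2 and Sp5 but not for Mmp7.

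Markers of the crypt base stem cells moved the same way. Of 14 measured members of the crypt stem and progenitor list 8 rose, or 57.1%, against 15.4% of all genes, and none fell. The median was 0.94 log2 units, and the count was also 8 without early array 1. The list shares Lgr5, Ascl2, Axin2, Smoc2, Sox9, Cd44 and Ephb3 with the Wnt list, so the lists are not independent. Lgr5, the receptor of R-spondins that marks crypt base stem cells, was at 7.55 to 8.99 (median 8.16) in late arrays, against 6.30, 5.46 and 5.67 in early arrays, a difference of 2.41 ± 0.38 (adjusted p = 5.28e-05). Ascl2, a transcription factor of these cells, was at 8.87 to 9.76 (median 9.39) in late arrays, against 7.03, 7.25 and 6.56 in early arrays, where the untreated mean was 7.90. The late group was above untreated colon and the early group was below it. The RNA-binding protein Msi1 rose by 2.45 ± 0.33, Smoc2 by 1.37 ± 0.23, Hopx by 1.25 ± 0.15, Sox4 by 1.15 ± 0.20 and Sox9 by 0.73 ± 0.16. Prom1, Bmi1, Lrig1 and Rgmb were among the members that did not pass. In tissue RNA, more cells of a type and more RNA per cell cannot be told apart, and this holds for all groups of markers here.

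Several of the largest rises were outside these lists. Slc30a2, a zinc transporter, was at 9.70 to 11.08 (median 10.41) in late arrays, against 4.53, 5.48 and 5.21 in early arrays, a 38.8-fold difference (adjusted p = 1.59e-12). Mt4, a metallothionein known from stratified squamous epithelium, was at 9.98 to 12.53 (median 11.81) in late arrays, against 4.69, 7.60 and 5.89 in early arrays. Both groups were apart by a wide margin in each gene, although early array 2 was raised for Mt4. Spock2, an extracellular proteoglycan, stood at 12.23 to 13.25 (median 12.70) in late arrays, against 7.28, 8.23 and 7.95 in early arrays. Alox12, a lipoxygenase that oxidises arachidonic acid, stood at 10.43 to 11.39 (median 10.59) in late arrays, against 5.74, 6.55 and 6.14 in early arrays, and had the smallest adjusted p of the genes named here (2.89e-13). Adcy8, a calcium-stimulated adenylyl cyclase, rose by 4.93 ± 0.39, Alb, the serum albumin gene, by 4.62 ± 0.40 and Irx4, a homeobox gene, by 4.61 ± 0.42. These 7 genes were taken among those whose late and early arrays do not overlap, so the lack of overlap was set by that choice. The untreated means of Irx4 and Alb were 4.45 and 5.82, close to the early levels of 4.14 to 4.45 and 5.45 to 6.09.

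Itln1, an intestinal lectin that binds microbial sugars, and the lipase-related genes Pnliprp1 and Pnliprp2 also rose about 5 log2 units, from early levels that were more spread. Itln1 was at 11.26 to 12.74 (median 12.08) in late arrays, against 6.15, 7.47 and 6.31 in early arrays, a difference of 5.39 ± 1.10 (adjusted p = 1.01e-03). Its probe set may also read near-identical lectin genes. Pnliprp2 was at 11.97 to 13.04 (median 12.51) in late arrays, against 6.85, 7.05 and 8.03 in early arrays. Its untreated mean was 8.65, or 7.92 without the untreated array that went against its label. Pnliprp1 was at 11.66 to 12.99 (median 12.64) in late arrays, against 5.42, 6.77 and 10.18 in early arrays. Pnliprp1 is also made by pancreatic acinar cells, and RNA of that organ was present in some arrays. Untreated distal array 1, which enters the untreated mean of Pnliprp2, had a mean of 11.65 over the acinar gene list. Whether such RNA adds to the levels of Pnliprp2 was not tested. The acinar enzyme Cpa1 was at 12.34, 10.68 and 7.46 in late arrays 2, 3 and 5 and at 9.62 in early array 3, against 4.18 to 4.54 in late arrays 1, 4 and 6 and 4.33 and 4.93 in early arrays 1 and 2. Pnliprp1 was at 12.77, 11.66 and 12.52 in late arrays 1, 4 and 6. The acinar list mean was 8.18 to 12.79 in late arrays and 7.07 to 10.47 in early arrays. Of its 6 measured members Pnliprp1 alone was called, as higher (16.7%, against 15.4% of all genes). That call ended without early array 1 (difference 3.98, adjusted p = 0.073). Without the 4 arrays in which Cpa1 was above 6 log2 units, 2455 genes were called, of which 2289 were among the 3398.

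Genes of wounded and regenerating epithelium rose in part. Of 18 measured members 9 rose and none fell, and 6 rose without early array 1. Spp1, the secreted phosphoprotein osteopontin, was at 9.94 to 10.95 (median 10.52) in late arrays, against 5.24, 7.94 and 7.14 in early arrays, a 13.1-fold difference. Msln, a surface protein of mesothelium and of some carcinomas, rose by 2.41 ± 0.31, Cldn4, a claudin of tight junctions, by 2.36 ± 0.59 and Krt7, a simple epithelial keratin, by 1.22 ± 0.14. Clu, a chaperone of regenerating intestinal cells, stood at 13.19 to 13.54 in late arrays and at 11.37, 12.81 and 12.62 in early arrays, so the rise of 1.14 rested on early array 1 (0.69 and adjusted p = 0.25 without it). Anxa1, Il33, Ereg, Hbegf, Emp1, Ccn1 and Ccn2 were among those that did not pass.

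Squamous keratins were higher in the late arrays. Of 8 measured members of the squamous epithelium list 4 rose and none fell, with or without early array 1. With the 9 distal arrays alone 2 were called, since the adjusted p of Krt6a was then 0.0527 and that of Krt4 0.0969. Krt14, a keratin of basal cells of stratified epithelium, was at 8.49 to 11.53 (median 9.43) in late arrays, against 5.09, 6.88 and 5.47 in early arrays. Krt15 rose by 2.27 ± 0.41, Krt6a by 2.94 ± 0.61 and Krt4 by 1.72 ± 0.45, and the Krt6a probe set may read its near-identical paralogues. Late array 5 was the highest in all 4 keratins, with late array 6 next. The list mean was 10.45 and 8.78 in these 2 arrays, 7.04 to 7.82 in the other late arrays, and 6.18 to 6.80 in the early arrays. The part of squamous cells in other rises was not tested.

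Of 12 measured oncofetal genes and tumour antigens 3 rose and 1 fell. The noncoding RNA H19, expressed in the fetus and in some tumours, was at 8.09 to 11.08 (median 9.50) in late arrays, against 4.38, 6.57 and 6.32 in early arrays, a difference of 3.75 ± 0.53. The water channel Aqp5 rose by 0.87 ± 0.19. Igf2, the neighbour of H19, rose by 0.47 ± 0.16, and that call ended without any 1 of early arrays 1 and 3 and late arrays 2, 5 and 6 (adjusted p = 0.0529 to 0.203). Cdx2, a transcription factor that keeps intestinal identity, was at 11.12 to 12.20 (median 11.67) in late arrays, against 12.34, 12.41 and 12.90 in early arrays, and fell by 0.88 ± 0.24. Without early array 3 this fall was 0.70 (adjusted p = 0.074), and 2 members of the list were then called. Among 15 claudins and tight junction genes Cldn4 and Cldn2 rose (13.3%, against 15.4% of all genes). The call of Cldn2, a pore-forming claudin, ended without early array 1 or 2 or late array 6 (adjusted p = 0.0528 to 0.125). That of Cldn4 did not end without any 1 array.

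**Figure D3:**
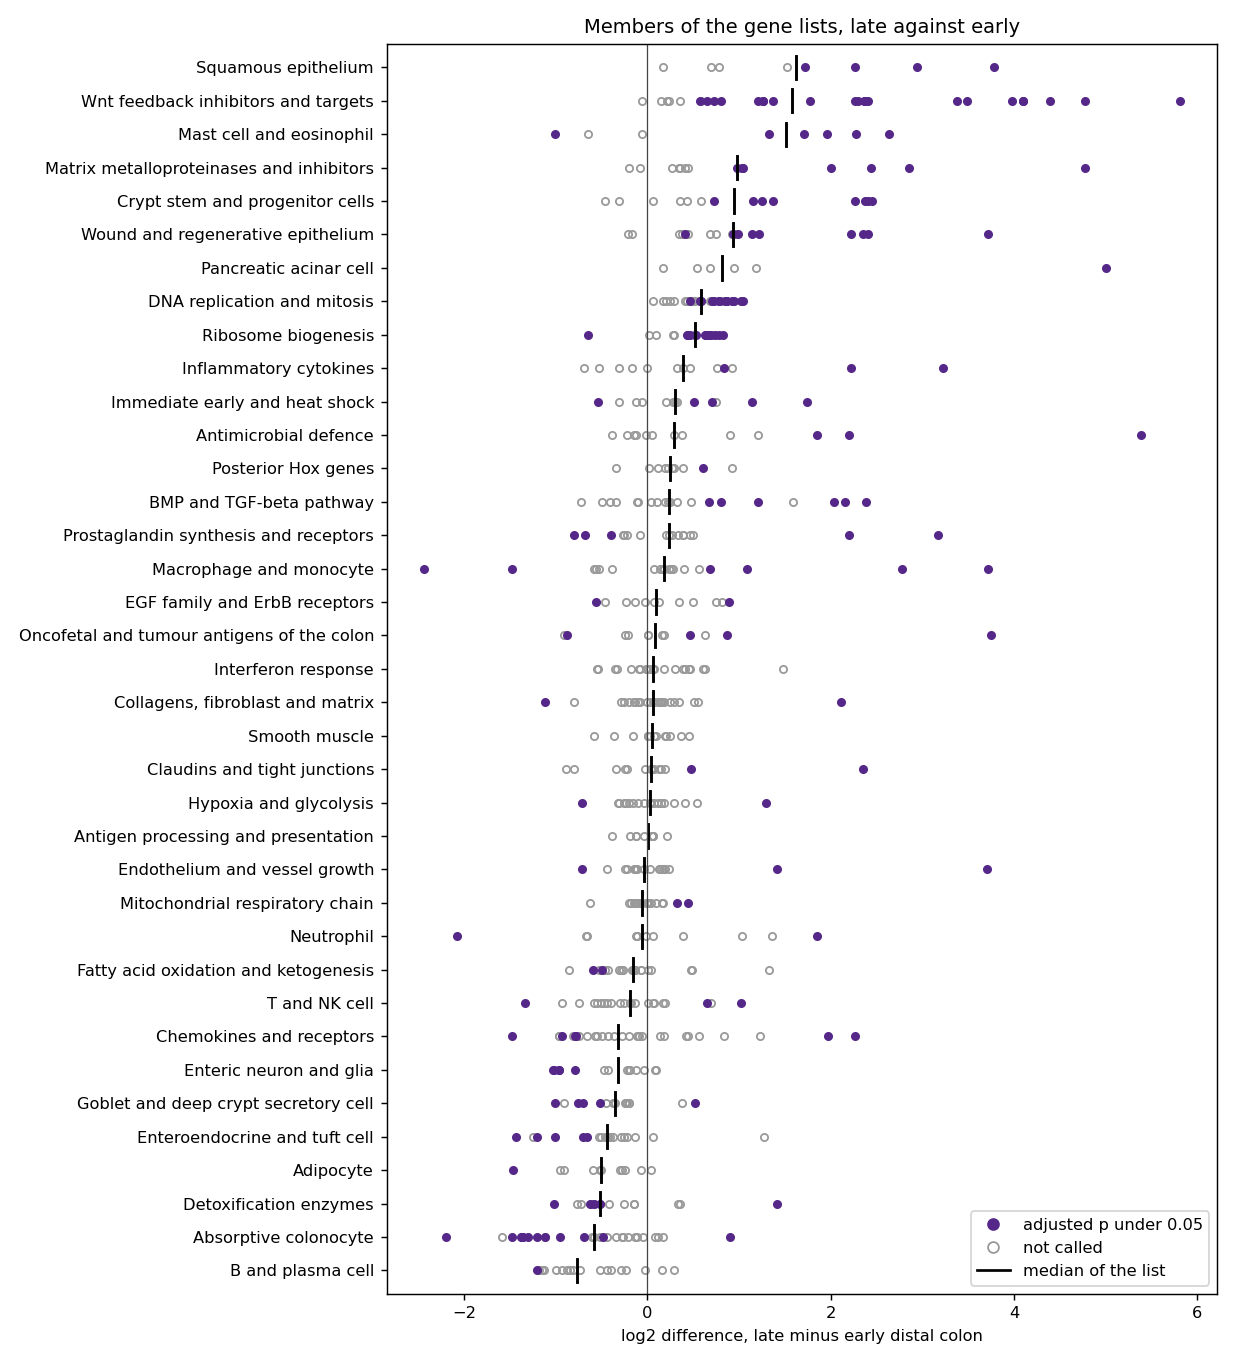
Difference of each measured member of 37 gene lists between late and early distal colon (log2 units, late minus early), with filled points for genes called at an adjusted p under 0.05, open points for the others and a bar at the median of the list. The squamous and Wnt lists have the highest medians (1.62 and 1.57) and the B and plasma cell list the lowest (-0.77).

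Genes of cell division and of ribosome assembly rose by small amounts, and most of these calls ended without early array 1. Of 27 measured genes of DNA replication and mitosis 14 rose, or 51.9%, against 15.4% of all genes, and none fell. The median was 0.59 log2 units. Without early array 1, 2 of them rose and the median was 0.37. Mcm2, part of the replicative helicase, was at 9.62 to 10.38 (median 9.93) in late arrays, against 8.30, 9.45 and 9.10 in early arrays, and Cdk1, the mitotic kinase, at 10.65 to 11.02 (median 10.76), against 9.08, 10.36 and 9.86. In both, late arrays lay above all early arrays and early array 1 was the lowest by a clear margin. Their differences of 1.04 and 1.02 became 0.71 and 0.68 without it (adjusted p = 0.057 and 0.052). Mki67, the marker of dividing cells, had 11.40 to 11.88 in late arrays and 11.64, 11.42 and 11.62 in early arrays, and its difference was 0.17 (95% interval -0.36 to 0.71). Of 19 measured genes of ribosome biogenesis 14 rose (73.7%, against 15.4% of all genes) and 1, Utp20, fell (5.26%, against 8.69%). The median was 0.52. Without early array 1, 5 rose and the median was 0.38. Polr1a, the largest subunit of the polymerase that transcribes ribosomal RNA, rose by 0.82 ± 0.14, a call that held with any 1 array left out. Noc2l also rose, by 0.74 ± 0.15, while Ncl, with 0.44, and Nip7, with 0.78, passed only with early array 1 (adjusted p = 0.13 and 0.091 without it). The call of Utp20 (-0.64) ended without any 1 of early arrays 1 and 3 and late arrays 1, 3, 4, 5 and 6.

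Matrix-degrading enzymes were raised, whereas the matrix itself differed little. Of 15 measured metalloproteinases and inhibitors 7 rose, or 46.7%, against 15.4% of all genes, and none fell. Without early array 1, 3 rose and 1 fell. Mmp12, the macrophage elastase, was at 8.95 to 10.20 (median 9.70) in late arrays, against 5.40, 6.96 and 8.11 in early arrays, a difference of 2.85 ± 0.59 (adjusted p = 1.09e-03). Mmp13, a collagenase, had 10.12 to 10.94 in late arrays and 5.72, 8.93 and 9.51 in early arrays, and Mmp10, a stromelysin, 11.80 to 12.38 and 7.36, 11.44 and 11.54. Late arrays were above early ones in all 3 enzymes, but for Mmp10 the gap to early arrays 2 and 3 was small. Without early array 1 the differences were 1.28 for Mmp13 (adjusted p = 0.13) and 0.63 for Mmp10 (adjusted p = 0.52), and the Mmp10 call also ended without late array 1 or 6 (adjusted p = 0.062 and 0.057). Mmp14, a membrane-bound activator of other metalloproteinases, rose by 1.04 ± 0.24 but by 0.76 without early array 1 (adjusted p = 0.057). Mmp3 was at 8.38 to 10.11 (median 9.04) in late arrays and at 6.50, 10.44 and 11.09 in early arrays, so the groups overlapped. Its difference was -0.20, and -1.62 without early array 1 (adjusted p = 0.026), which made it the 1 member lower in late mice in that fit, whereas without early array 3 it was 0.67.

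Of 25 collagens and other fibroblast and matrix genes 1 rose and 1 fell (4.0% each, against 15.4% and 8.69% of all genes). The list median was 0.07. Thbs2, a matricellular glycoprotein, rose to 10.39 to 11.05 (median 10.59) in late arrays, against 8.30, 8.98 and 8.30 in early arrays, a difference of 2.12 ± 0.27. Fap, a protease of activated fibroblasts, fell by 1.11 ± 0.17, with 6.87 to 7.67 in late arrays and 8.66, 8.34 and 8.15 in early arrays. Col1a1, the main fibrillar collagen chain, was at 12.03 to 12.46 in late arrays and 12.25, 12.45 and 12.43 in early arrays (difference -0.15, 95% interval -0.55 to 0.26). Of 20 genes of the BMP and TGF-beta pathway 6 rose, or 30.0%, against 15.4% of all genes, and none fell. Inhba, the activin A subunit, rose to 8.07 to 9.52 (median 8.52) in late arrays, against 5.71, 6.26 and 6.99 in early arrays. Bambi, a decoy receptor, rose by 2.16 ± 0.34, the ligand Bmp7 by 2.04 ± 0.28 and Id3, a target of BMP signalling, by 1.20 ± 0.16. These 4 calls held with any 1 array left out.

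Of 19 endothelial and vessel growth genes 2 rose and 1 fell (10.5% and 5.26%, against 15.4% and 8.69% of all genes). Sox17, a transcription factor of endothelium and endoderm, had 8.64 to 11.24 (median 10.67) in late arrays, against 6.43, 7.02 and 6.70 in early arrays, while the endothelial markers Pecam1, Cdh5 and Kdr did not pass, with differences of -0.14, -0.22 and -0.44. Angpt2, which loosens vessel walls, rose by 1.42 ± 0.21. Vegfa fell by 0.71 ± 0.19, and by 0.54 without early array 1 (adjusted p = 0.086). Vegfa is also 1 of the 20 genes of the hypoxia and glycolysis list. In that list Slc16a3, a lactate exporter, alone rose and Vegfa alone fell (5.0% each, against 15.4% and 8.69% of all genes). No gene of that list was called without early array 1.

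The list means of neutrophil, cytokine and chemokine genes were higher in every late and early distal array than in any untreated distal array. Single members could differ, such as Il23a, described below. Most members did not pass the test between the stages. S100a8 and S100a9, the subunits of the neutrophil protein calprotectin, were at 12.07 to 13.00 and 12.49 to 13.26 in late arrays, against 11.15, 13.34 and 12.96 and 12.05, 13.36 and 13.25 in early arrays. Late and early groups overlapped in both, and both were far above the untreated means of 5.58 and 5.93. The differences were -0.12 (95% interval -1.26 to 1.02) and -0.02 (-1.17 to 1.14), and -0.79 and -0.43 without early array 1 (adjusted p = 0.41 and 0.695). Il1b, the inflammatory cytokine, was at 11.16 to 12.25 (median 11.39) in late arrays and 10.83, 11.46 and 12.43 in early arrays (difference 0.00, -0.97 to 0.96). Of 12 measured neutrophil genes 1 rose and 1 fell (8.33% each, against 15.4% and 8.69% of all genes). Lcn2, an iron-binding protein of neutrophils and epithelium, had 11.96 to 12.89 in late arrays and 8.54, 11.38 and 11.93 in early arrays, and its rise of 1.86 was 0.82 without early array 1 (adjusted p = 0.34). Camp, a peptide stored in neutrophil granules, was at 5.12 to 7.46 (median 5.60) in late arrays, against 5.66, 9.90 and 8.46 in early arrays. Its fall of 2.07 was 3.25 without early array 1 (adjusted p = 1.8e-04) and was not called without early array 2 or 3 (adjusted p = 0.17 and 0.070). Early array 1, the lowest of the early arrays in these genes, moved the medians of the inflammatory lists. Without it the median was -0.69 for neutrophil genes, against -0.06 with it, -0.80 for chemokines, against -0.32, -0.74 for T and NK cell genes, against -0.18, and -0.53 for interferon genes, against 0.07. Without early array 1, 3 neutrophil genes were lower and none higher, and without early array 2 or 3 the count was 1.

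Of 13 inflammatory cytokines and enzymes 3 rose, or 23.1%, against 15.4% of all genes, and none fell. Without early array 1, 1 rose and 1 fell. Il23a, the p19 subunit of interleukin 23, was at 7.02 to 9.39 (median 8.25) in late arrays, against 5.34, 4.97 and 5.01 in early arrays and a mean of 5.15 in untreated colon. No late array reached down to the early group, and the difference was 3.23 ± 0.34 (adjusted p = 1.85e-07), or 9.38-fold. Il11, a cytokine of stromal cells, had 8.52 to 10.32 (median 9.35) in late arrays and 5.12, 7.54 and 8.95 in early arrays, with overlap, and its rise of 2.23 was 1.19 without early array 1 (adjusted p = 0.14). Lif rose by 0.84 and was not called without early array 1 or 2. Tnf, with a difference of 0.39 (-0.31 to 1.08), and Ptgs2, the inducible cyclooxygenase, with 0.46 (-0.40 to 1.32), did not pass. Nos2, the inducible nitric oxide synthase, had a difference of -0.53 (adjusted p = 0.389), which was -1.37 without early array 1 (adjusted p = 0.0226) and 0.26 without early array 3.

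Among 30 chemokines and their receptors 2 rose and 4 fell (6.67% and 13.3%, against 15.4% and 8.69% of all genes). Cxcl5, a neutrophil attractant that the authors' table names CXCL6, was at 10.11 to 10.98 (median 10.76) in late arrays, against 5.24, 9.82 and 9.94 in early arrays. Its rise of 2.26 (adjusted p = 0.047) was 0.72 without early array 1 (adjusted p = 0.565), and the call also ended without late array 1, 3, 4, 5 or 6. Cxcl2 rose by 1.97 and by 1.35 without early array 1 (adjusted p = 0.11). Ccr2, the receptor that brings monocytes from the blood, fell by 1.47 ± 0.38, with 7.89 to 8.52 in late arrays and 8.44, 10.46 and 10.26 in early arrays. Early array 1 lay within the late group here, and the call ended without early array 2 or 3 (adjusted p = 0.057 and 0.056). Ccl28, Cxcl12 and Ccr9 also fell, by 0.93, 0.78 and 0.79, in calls that single arrays could end: Ccl28 early array 1 or late array 1 (adjusted p = 0.231 and 0.0637), Cxcl12 early arrays 2 and 3 and late arrays 1, 3 and 6 (up to 0.245) and Ccr9 early arrays 2 and 3 and late arrays 1, 4, 5 and 6 (up to 0.223). The fall of Cxcl12 was 0.48 without early array 2. The number of chemokine genes called was 3 without early array 1, 2 without late array 1 and 3 without late array 6. In a fit with array weights, which called 34.8% of all genes, it was 12.

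Among 20 measured macrophage genes 4 rose and 2 fell, shares of 20.0% and 10.0% that were near those of all genes (15.4% and 8.69%). Cd163, a scavenger receptor of resident macrophages, had the largest fall of the genes whose groups did not overlap: it was at 5.23 to 6.97 (median 6.08) in late arrays, against 8.36, 8.58 and 8.61 in early arrays and 9.09 on average in untreated colon. It fell by 2.43 ± 0.49 log2 units, or 5.39-fold (adjusted p = 9.90e-04). Arg1, an arginine-consuming enzyme of myeloid cells, rose to 9.90 to 11.54 (median 10.71) in late arrays, against 6.55, 8.67 and 8.65 in early arrays, a difference of 2.78 ± 0.38. Spp1, described above, belongs to this list as well. Gpnmb, a glycoprotein of lipid-laden macrophages, rose by 1.09 and by 0.90 without early array 1 (adjusted p = 0.056), and Trem2 rose by 0.69, a call that 6 of the 9 single-array removals ended (early arrays 1 and 3 and late arrays 1, 3, 5 and 6). The pan-macrophage genes Csf1r, Adgre1, Cd68 and C1qa did not pass, with differences of 0.24, 0.13, 0.40 and 0.28. The list mean was at most 9.38 in late arrays and at most 9.35 in early arrays, and early array 1 was the lowest of all 9, at 8.13.

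Mast cell proteases were higher in late mice. Of 8 measured genes of mast cells and eosinophils 5 rose and 1 fell (62.5% and 12.5%, against 15.4% and 8.69% of all genes). Mcpt2 was at 9.49 to 10.55 (median 10.22) in late arrays, against 5.41, 9.05 and 8.10 in early arrays, and Mcpt1 at 9.15 to 10.43 (median 9.93), against 5.43, 9.04 and 8.26. Both are chymases of mucosal mast cells whose sequences are alike enough for probe sets to read both. Early array 1 was the lowest of the 9 arrays in each, and without it the differences of 2.64 and 2.28 were 1.58 (adjusted p = 0.099) and 1.20 (adjusted p = 0.26). Cpa3, a mast cell carboxypeptidase, rose by 1.96 ± 0.35 and kept its call without any 1 array. Cma1 and Mcpt4 rose by 1.71 and 1.33, and each call ended without early array 1 (adjusted p = 0.11 and 0.36) and without late array 1, that of Cma1 also without early array 3 and that of Mcpt4 also without late array 5. Kit, the receptor of stem cell factor on mast cells and on some secretory and pacemaker cells of the colon, fell by 1.01 ± 0.21. The list had 2 calls without early array 1, Cpa3 as higher and Kit as lower.

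Lymphocyte and interferon genes gave few calls. Of all genes 15.4% rose and 8.69% fell, against 8.7% and 4.35% of T and NK cell genes. Of B and plasma cell genes none rose and 5.56% fell. Of 23 T and NK cell genes 2 rose and 1 fell: Zap70, a kinase of the T cell receptor, rose by 1.02 ± 0.25, Foxp3, the factor of regulatory T cells, rose to 6.61 to 7.33 in late arrays, against 6.06, 6.46 and 6.04 in early arrays, and Cd28 fell by 1.33. The Cd28 call ended without any 1 of early arrays 2 and 3 and late arrays 1, 5 and 6. Of 18 B and plasma cell genes Irf4 alone was called, with a fall of 1.20 (adjusted p = 0.047), and 16 had negative differences. The list mean was 8.95 to 9.52 in late arrays and 8.81, 10.39 and 10.21 in early arrays. Early array 1 lay below every late array, and without it 4 genes were called, all lower in late mice, with a median of -1.43, against -0.77 with it. The Irf4 call ended without any 1 of the other arrays but late array 2. None of the 21 interferon response genes or the 10 antigen presentation genes was called. Usp18, an interferon-induced protease, had the smallest p among the former, with 1.48 (0.19 to 2.77; adjusted p = 0.087), and Ciita, the regulator of class II genes, among the latter, with -0.39 (adjusted p = 0.52). Without early array 1, 1 interferon gene was called lower in late mice, and without early array 3, 1 was called higher.

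Part of the transport genes of mature absorptive colonocytes were lower in late mice. Of 29 measured colonocyte genes 12 fell, or 41.4%, against 8.69% of all genes, and 1 rose (3.45%, against 15.4%). The median was -0.58 log2 units, and without early array 1, 8 fell and the median was -0.44. Aqp8, a water channel of surface colonocytes, was at 7.67 to 11.27 (median 9.55) in late arrays, against 11.94, 11.51 and 11.14 in early arrays, and fell by 2.20 ± 0.44 (adjusted p = 9.49e-04). The late arrays were widely spread and the highest of them reached into the early group. Slc26a3, the chloride and bicarbonate exchanger, was at 10.95 to 12.78 (median 11.79) in late arrays, against 13.57, 12.97 and 12.80 in early arrays, and fell by 1.30 ± 0.27. Slc9a2, a sodium and proton exchanger, fell by 1.38 ± 0.31, Slc5a8, which takes up short-chain fatty acids, by 1.12, Abcg2, an efflux pump, by 1.20 and Slc26a2, a sulfate carrier, by 0.95. Trpm6, a magnesium channel, had 8.15 to 8.92 in late arrays and 11.48, 9.69 and 8.85 in early arrays, and its fall of 1.48 was 0.74 without early array 1 (adjusted p = 0.24). Car4, a membrane carbonic anhydrase, and Dpep1, a dipeptidase, fell by 1.35 and 1.37, and by 1.19 and 1.13 without early array 1 (adjusted p = 0.056 each).

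Other colonocyte genes did not pass. Car1, a cytosolic carbonic anhydrase, was at 11.86 to 13.21 in late arrays and 12.32, 12.74 and 12.65 in early arrays (difference -0.05, 95% interval -0.49 to 0.39). Krt20, Cdh17 and Vil1 had differences of -0.28 (-0.61 to 0.05), -0.14 (-0.49 to 0.21) and -0.11 (-0.35 to 0.12). Slc9a3, the other apical sodium and proton exchanger, was the 1 member that rose, by 0.90 ± 0.28, and that call ended without early array 2 or 3 or late array 1 (adjusted p = 0.050 to 0.095). The list mean was 10.19 to 11.24 in late arrays and 11.27 to 11.67 in early arrays, so no late array reached the early group.

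Part of the genes of secretory cells were lower too. Of 17 genes of goblet and deep crypt secretory cells 4 fell (23.5%, against 8.69% of all genes) and 1 rose (5.88%, against 15.4%). Without early array 1, 1 fell and 1 rose. Kit was 1 of the 4; Atoh1, the factor that sets the secretory fate, fell by 0.70, Sytl2 by 0.75 and Zg16, a lectin of mucus, by 0.51. Each of these 3 calls ended without early array 1 (adjusted p = 0.18, 0.082 and 0.074), and that of Atoh1 also without late array 1 or 3. Reg4, a secreted lectin of deep crypt cells, rose by 0.51, and by 0.26 without early array 3 (adjusted p = 0.24). The mucin Muc2 did not pass (-0.24). Of 19 enteroendocrine and tuft cell genes 5 fell, or 26.3%, against 8.69% of all genes, and none rose, also without early array 1. Gcg, which encodes glucagon-like peptides, was at 8.27 to 9.96 (median 9.01) in late arrays, against 11.28, 9.97 and 10.41 in early arrays, and fell by 1.43 ± 0.30. The highest late array was just below the lowest early array. Neurod1, a factor of endocrine cells, fell by 1.20 ± 0.22, the hormone gene Cck by 0.71, with an adjusted p of 0.0704 without early array 3, and Chgb by 0.66, with an adjusted p of 0.096 without early array 1. Dclk1, a tuft cell kinase, fell by 1.01 in a call that ended without early array 1 or 3 or late array 1 or 6 (adjusted p = 0.061 to 0.25).

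A few detoxification genes were lower as well. Of 16 measured genes 4 fell and 1 rose, and without early array 1, 1 fell and 1 rose. Gstm3, a glutathione transferase, was at 9.92 to 11.03 (median 10.23) in late arrays, against 11.80, 11.24 and 11.03 in early arrays, and fell by 1.02 ± 0.23. Gsta4, a transferase that clears lipid peroxidation products, rose by 1.42 ± 0.24. Ugt1a6a fell by 0.62, and by 0.50 without early array 1 (adjusted p = 0.12). Without late array 4, 8 genes of the list were called. Of the genes of fatty acid oxidation, Slc25a20, the mitochondrial carnitine carrier, fell by 0.59 ± 0.13. Among 22 genes of the respiratory chain Ndufa4 and Ndufv2 rose, by 0.45 and 0.32 (9.09%, against 15.4% of all genes). None of the 22 was called without early array 1. The call of Ndufv2 ended without any 1 of early arrays 1 and 3 and late arrays 1, 5 and 6 (adjusted p = 0.060 to 0.18).

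Of 17 prostaglandin genes 2 rose (11.8%, against 15.4% of all genes) and 3 fell (17.6%, against 8.69%). Ptgds, a synthase of prostaglandin D, was at 5.75 to 8.18 (median 7.57) in late arrays, against 3.72, 5.08 and 3.80 in early arrays, a difference of 3.17 ± 0.41 (adjusted p = 4.45e-06). Pla2g2a, a secreted phospholipase that the C57BL/6 strain is known to carry in a broken form, was at 11.93 to 12.60 in late arrays, against 9.48, 10.33 and 10.48 in early arrays, and without early array 1 its difference of 2.20 was 1.89 (adjusted p = 0.10). The falls of Ptger3, by 0.80, Slco2a1, by 0.68, and Pla2g4a, by 0.39, were smaller, and 4 to 6 of the 9 single-array removals ended each of their calls (adjusted p up to 0.155). The count of 5 was 2 without early array 1, 3 without early array 2, 2 without early array 3, 3 without late array 1 and 2 without late array 3.

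Muscle and nerve of the colon wall were compared because pieces of tissue can differ in depth. None of 14 smooth muscle genes was called, and the list mean was 9.99 to 10.63 in late arrays and 10.28 to 10.56 in early arrays. Without late array 2 or 3, 1 of them was lower. Of 14 genes of enteric neurons and glia 5 fell, or 35.7%, against 8.69% of all genes, and none rose. Gfap, an intermediate filament of glia, was at 4.68 to 5.60 (median 5.18) in late arrays, against 5.70, 6.45 and 6.27 in early arrays, and fell by 0.96 ± 0.21. The neuronal genes Nos1, Snap25 and Elavl4 fell by 1.02, 0.97 and 0.79, and each lost its call without early array 3 (adjusted p = 0.055 to 0.11). The count for the list was 3 without early array 2, 1 without early array 3 and 2 without late array 1 or late array 6. Of 11 adipocyte genes Acvr1c alone fell (9.09%, against 8.69% of all genes), by 1.47, and by 0.90 without early array 1 (adjusted p = 0.095). Without late array 2, 2 adipocyte genes were lower. Whether tissue depth has a part in these falls was not tested.

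The other large falls were genes of transport, lipid handling and growth control. Slc13a2, a citrate and succinate carrier, was at 8.23 to 10.30 (median 9.19) in late arrays, against 11.42, 10.79 and 11.01 in early arrays, and fell by 1.83 ± 0.32 (adjusted p = 2.26e-04). Far2, which makes fatty alcohols, was at 6.33 to 8.84 (median 7.51) in late arrays, against 9.53, 9.17 and 9.44 in early arrays. In both, the late arrays were spread over about 2 log2 units and the early ones were close together. Ptk6, an epithelial kinase, fell by 1.65 ± 0.31, A1cf, a cofactor of RNA editing listed as 9130016M20Rik in the authors' table, by 1.64 ± 0.36 and Chp2, a partner of sodium and proton exchangers, by 1.58 ± 0.30. Picalm, an endocytosis adaptor, fell by 1.75 ± 0.44 and the gene listed as OSTBETA, a subunit of the bile acid exporter of the gut, by 1.58 ± 0.38. Dgkh, a diacylglycerol kinase, had 6.06 to 7.47 in late arrays and 9.84, 7.98 and 7.78 in early arrays, and its fall of 1.69 was 1.04 without early array 1 (adjusted p = 0.026). Slc7a9, Pappa2 and Slc8a1 fell by 1.73, 1.65 and 1.63 and lost their calls without early array 1 (adjusted p = 0.11, 0.20 and 0.11), Slc8a1 also without early array 3.

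**Figure D4:**
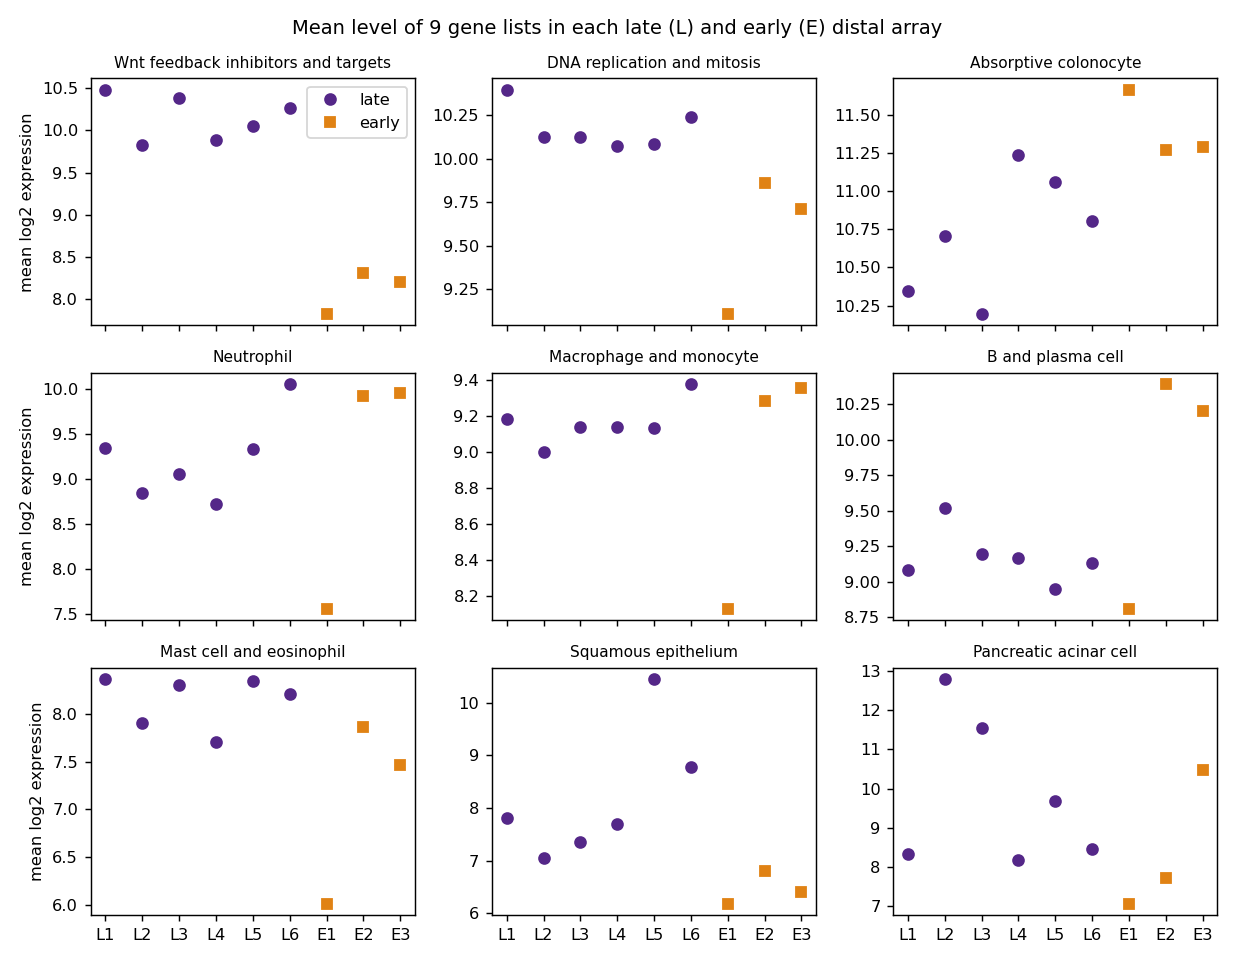
Mean level (log2 expression) of 9 gene lists in each late (L1 to L6) and early (E1 to E3) distal array. Late arrays lie above early arrays for the Wnt list and below them for the absorptive colonocyte list, early array 1 (E1) is the lowest of the 9 for the neutrophil, macrophage and mast cell lists, and late array 5 (L5) is the highest for squamous epithelium.

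The same time contrast in the proximal colon, 4 late arrays against 3 early arrays from the region without lesions, gave 94 calls (0.666% of genes), 23 higher (0.163%) and 71 lower (0.503%). It shares no array with the distal contrast. The difference between the contrasts, distal minus proximal, was itself tested and was called for 537 genes (3.8%), 459 of them positive (3.25%) and 78 negative (0.552%). Of the 3398 distal calls 477, or 14.0%, were among them, which is 88.8% of the 537. For the other distal calls a difference between the regions did not pass the test. Leaving out 1 array at a time gave 17 to 301 proximal calls and 314 to 740 for the difference between the regions. Without the pair of untreated arrays that went against their labels they numbered 190 and 847. Proximal calls numbered 17 without early proximal array 2, 48 without early proximal array 3 and 301, 25, 41 and 27 without late proximal arrays 1, 2, 3 and 4. Calls of the difference between the regions numbered 314 without early distal array 1 and 336 and 349 without early proximal arrays 2 and 3.

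The regions differed in the Wnt genes. In the proximal colon none of the 28 was called and the median difference was 0.03 log2 units. For 17 of the 28 the distal rise was larger by the test of the difference. Notum averaged 5.57 ± 0.89 in late proximal arrays (SD, n = 4) and 4.64 ± 0.22 in early proximal arrays (SD, n = 3), and the difference between the contrasts was 4.88 ± 0.47 (SE; adjusted p = 3.65e-07). For Lgr5 it was 3.42 ± 0.55, for Sp5 4.27 and for Axin2 2.16 ± 0.28. Lgr5 was lower on average in late than in early proximal colon, by 1.01 ± 0.41, which did not pass the test (adjusted p = 0.27). All 8 of the crypt stem genes that rose in the distal colon also differed between the regions.

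Beyond these, the largest positive differences between the regions, taken among genes also called in the distal contrast, were in 2 kinds of genes. Itln1, Pnliprp2 and Adcy8 rose in the distal colon, had proximal differences of -1.32, -0.52 and -0.25 that did not pass the test, and differed between the contrasts by 6.71 ± 1.61, 5.71 ± 1.50 and 5.19 ± 0.57. The first of these calls ended without early distal array 1 or early proximal array 3 (adjusted p = 0.051 and 0.062), and that of Pnliprp2 without any 1 of 6 arrays (adjusted p up to 0.11). Cxcl5, Il11 and Mmp10 had distal differences of 2.26, 2.23 and 2.01, against proximal differences of -3.07, -3.03 and -3.19, and the differences between the contrasts were 5.34, 5.26 and 5.20. The call of Cxcl5 ended without early proximal array 2 (4.49, adjusted p = 0.055).

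Calprotectin showed the contrast from the other side. S100a8 averaged 7.26 ± 1.03 in late proximal arrays and 12.2 ± 0.87 in early proximal arrays (SD, n = 4 and 3), a fall of 4.92 ± 0.60 (SE; adjusted p = 1.07e-04), while the distal difference was -0.12. The difference between the contrasts was 4.80 ± 0.82 (adjusted p = 5.49e-04). S100a9 fell by 4.92 and Il1b by 3.52 in the proximal colon, with differences of 4.90 and 3.52 between the contrasts. Of the 12 neutrophil genes 8 fell in the proximal colon and 8 differed between the regions. Col1a1 fell by 1.33 ± 0.21 in the proximal colon, as 1 of 6 called collagen and matrix genes there, and differed between the regions by 1.18.

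Negative differences were fewer, and those named here were taken among genes also called in the distal contrast. Aqp8, Trpm6, Chp2, Dpep1, Car4 and Cbr3, a carbonyl reductase, fell in the distal colon, by 1.10 (Cbr3) to 2.20 (Aqp8), and had proximal differences of 0.47 (Car4) to 1.15 (Trpm6) that did not pass the test. Between the contrasts they differed by -2.69 for Aqp8, -2.63 for Trpm6, -2.19 for Chp2, -1.85 for Dpep1, -1.82 for Car4 and -1.80 for Cbr3. Chp2 kept this call without any 1 array. The calls of Aqp8 and Trpm6 ended without early distal array 1 or early proximal array 2 (adjusted p = 0.055 to 0.075), and those of Dpep1, Car4 and Cbr3 without any 1 of 9, 10 and 11 arrays (adjusted p up to 0.12, 0.14 and 0.18). The distal fall of Cbr3 was 0.64 without early distal array 1 (adjusted p = 0.24).

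**Figure D5:**
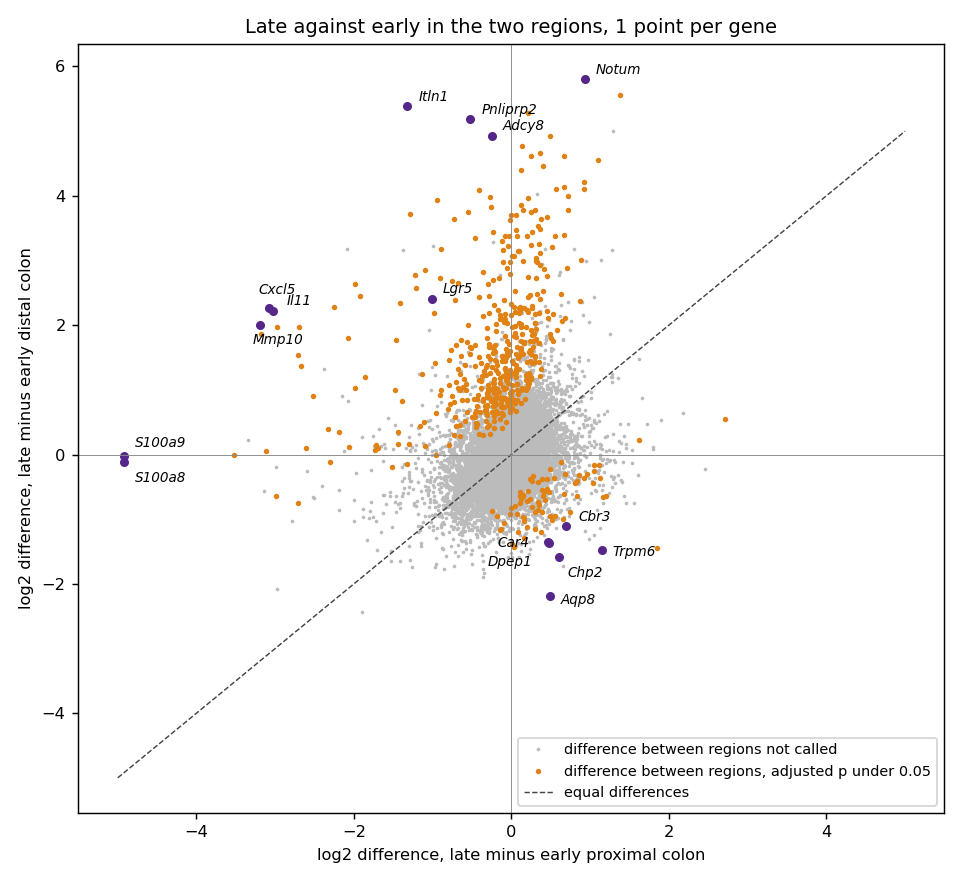
Difference between late and early mice (log2 units, late minus early) in the distal colon (vertical axis) against that in the proximal colon (horizontal axis), with 1 point per gene; orange points are the 537 genes whose differences between the regions were called and the dashed line marks equal differences. Notum lies at 5.81 distal and 0.93 proximal, and S100a8 and S100a9 lie near 0 distal and at -4.92 proximal.

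Of the smaller lists, the antimicrobial and the immediate early one had 23.1% and 30.8% of members higher, against 15.4% of all genes. The EGF family and posterior Hox lists had 8.33% and 10.0%. The shares that fell, 8.33% in the EGF list and 7.69% in the immediate early list, were near the 8.69% of all genes. Of 13 antimicrobial genes Itln1, Lcn2 and Pla2g2a rose, and 1 rose without early array 1. Of 12 genes of the EGF family and its receptors Btc, a ligand, rose by 0.89 and the receptor Erbb3 fell by 0.56, and neither was called without early array 1 (adjusted p = 0.107 and 0.0526), nor Btc without early array 3. Of 10 posterior Hox genes Hoxd12 alone rose, by 0.61, and not without early array 1 or 3 (adjusted p = 0.062 and 0.10), and 2 Hox genes rose without late array 4. The list of immediate early and heat shock genes had 13 measured members, of which 4 rose and 1 fell. Ier3, an early response gene, rose to 11.10 to 12.50 (median 11.89) in late arrays, against 9.77, 10.23 and 10.39 in early arrays. Fosb rose by 1.14, and by 0.88 without early array 3 (adjusted p = 0.079), and the calls in that list numbered 2 or 3 without any 1 of the early arrays and 3 without late array 3.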

How the data were processed

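RNA of the colon was extracted with Trizol, amplified with NuGEN Ovation kits and hybridised to Affymetrix arrays with a biotin label, per the labels' protocols. The deposited values are log2 expression made by RMA, and Partek 6.5 is also named, per the submitters' processing notes. Gene names came from the authors' deposited table of group comparisons, whose fold changes (scores that run from untreated over treated) and p-values were not used here. Its group means differed from means of the deposited log2 columns by at most 0.0051. The deposited values of the 6 early arrays carry the digits of means of 2 values; the labels do not state such a step, and each early array was counted once.

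Of 45101 probe sets, 18168 lay outside that table, 380 named several genes and 2720 none. The probe set with the highest mean stood for each of 14123 genes. Symbols were matched to RefSeq for 19920 probe sets directly and 1619 by synonym, and 2294 kept their name. The authors' table names Car4 and Car1 CA4 and CA1. All 28 arrays entered 1 linear fit with a mean for each of 6 groups (limma 3.58.1, R 4.3.3, 22 residual and 3.78 prior degrees of freedom), without a further filter. Calls needed a two-sided Benjamini-Hochberg adjusted p under 0.05 over all genes. The number of arrays limits the precision, and the p-values measure the spread between these arrays. SE is the moderated standard error, and intervals are at 95%. The fit was tested on simulated data. Alternatives are given in the closing section. Python 3.11.15, pandas 2.3.3 and matplotlib 3.10.9 made tables and figures.

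The members and the 37 lists were chosen with earlier results of these data known. Genes named are the 12 largest rises and falls whose arrays do not overlap (unnamed and predicted genes passed over). Also named are the 3 largest called members of each list (or the smallest p) and other members where a list is described. The 6 largest differences between regions in each direction were taken among genes called both in the distal contrast and in that difference. Results of some list members are not reported here.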

Additional observations from a re-analysis of the deposited data

Results flagged for a closer look

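For 6 of 216 quantities (179 genes and 37 list means) examined over the 6 late distal arrays, all 6 of them genes, 1 array lay further from the others than Dixon's limit of 0.625 of the range allows at 95%. Chance gives about 1 in 20. Late array 2 was low for Irx4 (7.03, against 9.01 to 10.06 in the other late arrays) and Sox17 (8.64, against 10.39 to 11.24), and high for Utp20 (10.51, against 9.82 to 10.07). Late array 4 was low for Mki67 (11.40, against 11.71 to 11.88) and Hoxd13 (11.32, against 11.75 to 11.98). Late array 6 was high for Cldn2 (11.24, against 10.66 to 10.84).

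The late minus early difference was larger in the distal than in the proximal colon, by the test of that difference, for these genes, in log2 units: Itln1 by 6.71, Pnliprp2 by 5.71, Cxcl5 by 5.34, Il11 by 5.26, Mmp10 by 5.20, Adcy8 by 5.19, Slc30a2 by 5.07, Notum by 4.88, Mmp7 by 4.65, Spock2 by 4.44, Irx4 by 4.36, Alox12 by 4.30, Sp5 by 4.27, Mt4 by 4.18, Alb by 3.96, Lgr5 by 3.42, Msi1 by 2.74 and Ascl2 by 1.50. It was more negative in the distal colon for Aqp8 (-2.69), Trpm6 (-2.63), Chp2 (-2.19), Dpep1 (-1.85), Car4 (-1.82) and Cbr3 (-1.80).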

How the results depend on the processing

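None of the 154 distal calls examined singly changed sign in an alternative. Of 25 genes examined that were not called, 14 did (Cd44, Tnf, Ptgs2, Car1, Cpa1, Col1a1, S100a8, S100a9, Il1b, Nos2, Mmp3, Ciita, Hoxb13 and Hoxd13), in no case past the threshold on the turned side. Distal calls numbered 3398 as reported, 6391 when all probe sets were tested, 1979 among genes above the median level, and 1673 to 3755 with 1 distal array left out. With array weights they numbered 4915 (34.8% of all genes), of which 3080 were among the 3398. Proximal calls numbered 94, but 35 with the 16 treated arrays alone, 2644 with array weights (early distal array 1 had a weight of 0.296), 16 among genes above the median level, and 17 to 301 with 1 array left out. Differences between the regions numbered 537, but 1301 with array weights, 858 for all probe sets, 149 above the median level, and 314 to 740 with 1 array left out. The cause of these shifts was not tested, except that fewer arrays or genes enter some. Centring each array on its median moved the proximal median of all genes to 0.12 log2 units and the share of higher proximal calls to 41.4%, against 24.5%. That share was 48.8% with array weights and 37.1% with the treated arrays. Without the pair of untreated arrays that went against their labels (added after seeing the data), 190 proximal calls and 847 differences between the regions were made. Of the 154 called genes, 127 lost their call with the replicate block, 57 without early distal array 1, 34 without the 4 arrays with pancreatic transcripts and 29 with the 9 distal arrays alone (2493 calls, 2254 of them shared).

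Replicate numbers do not pair late with early mice: deviations of same-numbered distal arrays correlated at -0.107, -0.317 and 0.292. Early distal with early proximal arrays correlated at 0.691, 0.55 and -0.0219, and late distal with late proximal at -0.233 to 0.0842. With the replicate number as a block, 100 distal genes were called and, with state and number as a block (added after seeing the data), 899 differences between the regions. Leaving out proximal arrays and the 4 arrays with pancreatic transcripts were also added then.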
